A study of Homo sapiens with 6 samples.

Results

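The HOX genes of the 4 human clusters were followed in PC3 cells, a prostate cancer line derived from a metastasis to bone. The members are all genes of the deposited table whose symbol is HOXA, HOXB, HOXC or HOXD followed by a number and nothing more. This rule gave 39 of 23285 genes, with 11 in HOXA, 10 in HOXB, 9 in HOXC and 9 in HOXD. The rule itself uses no measured value. In the coordinates of the table (build hg19), HOXA spans chr7:27132614-27239725, HOXB chr17:46606807-46806111, HOXC chr12:54332576-54449814 and HOXD chr2:176957532-177055635.

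HOX genes encode transcription factors that bind DNA through a homeodomain and give cells of the embryo their position along the body axis. Each cluster holds a row of genes numbered by paralogue group, from group 1 at the 3′ end to group 13 at the 5′ end, and genes of the same number in different clusters are the closest relatives. Genes towards the 5′ end are switched on later and nearer to the tail, so that groups 9 to 13 pattern the limbs and the urogenital tract. The prostate arises from the hindmost part of this map, and HOXB13 is a factor of prostate development.

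RNA sequencing measured 6 libraries, 3 of cells that received a non-specific siRNA and 3 of cells that received an siRNA against paxillin, an adaptor protein of focal adhesions. All were taken 72 h after transfection, and both groups share the line, the medium and the transfection itself. The libraries of both groups carry replicate numbers 1 to 3. All are of 1 cell line, and nothing in the labels ties the replicates to separate cultures, so a p-value covers the spread between these libraries, which may be technical. The question of the comparison was which transcripts depend on paxillin, and it is asked here of the HOX genes.

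The targeted gene was lower in each library that should have less of it. PXN was measured at 835, 854 and 718 TMM-scaled CPM (counts scaled to a common library size) with non-specific siRNA and at 59.2, 55.7 and 91.7 CPM with paxillin siRNA, a log2 fold change of -3.54 ± 0.23 (SE; edgeR, adjusted p = 0.00613). Leaving out replicate 1 or 2 of non-specific siRNA gave -3.52 and -3.50, with edgeR giving adjusted p-values of 0.0819 and 0.0762. Each library held about 22209800 to 33627600 reads, and replicate 3 was the shallowest of both groups. Epithelial keratins were high in all libraries, with KRT18 at 34.3 to 43.4 FPKM (a level per length of transcript and size of library). KLK3, the androgen target prostate-specific antigen, was at or near 0. Of the 5 epithelial genes EPCAM and CDH1 were called higher with paxillin siRNA (edgeR, adjusted p = 0.0337 and 0.0496), KRT19 lay wholly below the non-specific libraries without a call (adjusted p = 0.260), and their summed FPKM was 227 to 239 with non-specific and 197 to 225 with paxillin siRNA. Of 5 leukocyte genes 4 stayed below 0.1 FPKM, PTPRC at no more than 0.00767 FPKM, and COL1A1 of the fibroblast markers reached 5.70 FPKM. Some markers moved with the groups, with values in FPKM sums over each list. FPKM is not TMM-scaled, so sums set between groups also carry a difference in scaling. The androgen-responsive prostate markers summed to 4.48 to 6.87 and then 7.15 to 8.64 with paxillin siRNA, the endothelial markers to 3.86 to 5.76 and then 6.48 to 7.33, and the neuroendocrine markers to 56.1 to 81.0 and then 31.9 to 53.5. TMPRSS2 and KDR, of the first 2 lists, were called higher and ENO2, of the last, lower by DESeq2 and by edgeR with the replicate number as a block, and none of them by edgeR without it. Their part in the HOX results was not tested.

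Several microRNAs lie within these clusters and are known to bind HOX transcripts, so their sequences are shown with the sites that a search of the members found. Mature sequences are from RefSeq (GRCh38.p14), with the seed, bases 2 to 8, in capitals. The forms of miR-196 share a seed and come from the HOXA, HOXB and HOXC clusters, whereas miR-10a lies in HOXB and has another seed.
hsa-miR-196a-5p: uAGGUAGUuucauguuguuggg
hsa-miR-196b-5p: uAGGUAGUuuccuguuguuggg
hsa-miR-10a-5p: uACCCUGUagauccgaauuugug

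The complement of the miR-196 seed, ACTACCT, was looked for on the transcript strand in the last 1000 bases of the longest protein-coding transcript of each gene (GENCODE release 29, GRCh38). It stood in 8 of the 38 members with such a transcript, or 21.1%, and in 5.21% of 18026 genes. All 13 matches in members lay in 3′ untranslated regions, 4 of them in HOXA7 and 2 each in HOXA9 and HOXC8. HOXA5, HOXB1, HOXB6, HOXB7 and HOXB13 had 1 each. The miR-10 match, ACAGGGT, stood in 3 members, or 7.89%, against 6.71% of all genes. The sites of the members with the highest levels are shown with the match in capitals, HOXA9 at chr7:27162692-27162714, HOXB6 at chr17:48595934-48595956 and HOXB13 at chr17:48725510-48725532, all on the minus strand.
HOXA9 site: tatgtgcagaaggttACTACCTa
HOXB6 site: ctggaaggagcacatACTACCTa
HOXB13 site: tgggccgcggccgccACTACCTc

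A match of letters is a description of the sequence and not a measured interaction. Mature microRNAs were not measured, since the libraries were made from mRNA. The hairpins MIR196A1, MIR196A2, MIR196B and MIR10A were listed at 0 CPM in all 6 libraries, where 3 reads would be 0.0892 to 0.135 CPM. These limits cover counting error only.

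PC3 cells held a HOX profile dominated by HOXB13, followed by 5′ genes of the HOXA cluster. HOXB13, the prostate homeobox gene, was listed at 80.0, 63.1 and 102 FPKM with non-specific siRNA, which is 81.6 ± 19.4 FPKM (SD, n = 3) and above 98.5% of all genes. The next gene, HOXA9, was 12.8-fold lower, and no library of either gene overlapped with the other. HOXB13 alone made up 64.7%, 59.2% and 73.0% of the summed FPKM of all 39 members in these libraries. With paxillin siRNA its share was 55.4%, 46.7% and 71.1%. The median member stood at 0.544 FPKM, and 12 of 39 members reached 1 FPKM, a level that 48.6% of all genes reached.

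**Figure D1:**
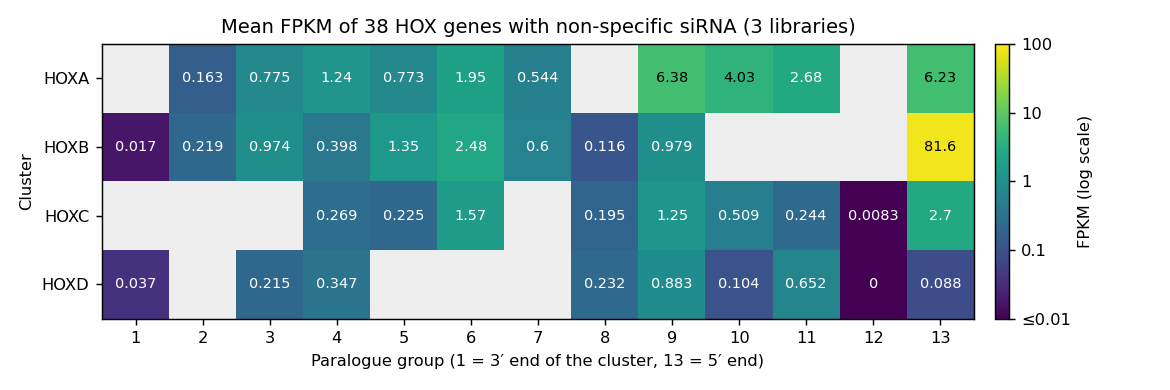
Mean FPKM of 38 of the 39 HOX genes over the 3 non-specific siRNA libraries, by cluster (rows) and paralogue group (columns, from the 3′ end at 1 to the 5′ end at 13). Colour is on a log scale, and grey marks positions with no member shown. HOXB13 stands at 81.6 FPKM, the 4 HOXA genes of groups 9 to 13 lie between 2.68 and 6.38 FPKM, and no HOXD gene reaches 1 FPKM.

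The 5′ HOXA genes formed the second tier. HOXA9, a gene of blood and reproductive tract development that is often overexpressed in leukaemia, was listed at 6.65, 7.29 and 5.22 FPKM. HOXA13, which patterns digits and the genital tubercle, was at 6.62, 4.09 and 7.97 FPKM. These neighbours in the order of levels overlapped and cannot be ranked. HOXA10, a gene of uterus and male accessory gland development, was at 4.16, 3.81 and 4.11 FPKM. It overlapped with HOXA13 and stood above the next gene, HOXC13, in every library. HOXC13, known for its role in hair and nails, was at 2.86, 2.55 and 2.69 FPKM. HOXA11, a limb and kidney gene, was at 3.17, 2.59 and 2.28 FPKM, which overlaps with HOXC13.

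Most of the remaining members above 1 FPKM came from the middle of the clusters, groups 5 to 8. HOXC9 belongs to groups 9 to 13 and HOXA4 to groups 1 to 4. HOXB6 was at 2.58, 2.74 and 2.12 FPKM, HOXA6 at 2.00, 2.31 and 1.53 FPKM, and HOXB5, a gene of lung and enteric nerve development, at 1.36, 1.50 and 1.18 FPKM. HOXC6, which is often raised in prostate tumours, varied more, with 1.53, 2.26 and 0.911 FPKM, and replicate 2 was the highest. HOXC9, which specifies motor neurons of the thoracic spinal cord, was at 1.26, 1.65 and 0.833 FPKM, and HOXA4 at 1.45, 1.29 and 0.971 FPKM. Neighbours in this order did not stand apart, as only 5 of the 38 pairs of adjacent genes in the whole order of 39 had libraries that did not overlap. Of the tested members below 1 FPKM, 23 in number, the levels ran from 0.0875 to 0.979 FPKM.

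HOXB1, HOXC12, HOXD1 and HOXD12 were too low for a test. HOXD12 was listed at 0 in all 6 libraries, and HOXB1, HOXC12 and HOXD1 did not exceed 0.0715 FPKM in any library. HOXA2, of a low group number, was tested at a level of 0.163 FPKM.

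By cluster, the summed FPKM of the members with non-specific siRNA was 88.7 ± 18.1 for HOXB, 24.9 ± 1.26 for HOXA, 6.96 ± 1.30 for HOXC and 2.56 ± 0.610 for HOXD (SD, n = 3). Without HOXB13, the other 9 HOXB genes summed to 7.13 ± 1.32 FPKM, close to the HOXC sum. HOXB13 stands apart on the chromosome as well, since 98.3 kb separate it from HOXB9, while the largest other distance between neighbours of a cluster is 18.7 kb. By position, the 16 genes of groups 9 to 13 summed to 108 ± 19.2 FPKM. The 11 of groups 5 to 8 summed to 10.0 ± 2.14 FPKM and the 12 of groups 1 to 4 to 4.83 ± 0.843 FPKM. The medians were 0.931, 0.600 and 0.244 FPKM in the same order. Within HOXA alone, groups 9 to 13 summed to 19.3 ± 1.43 FPKM against 3.27 ± 0.523 for groups 5 to 8 and 2.35 ± 0.260 for groups 1 to 4. In HOXD the 5 genes of groups 9 to 13 summed to 1.73 ± 0.310 FPKM only. The 1 gene of groups 5 to 8 was at 0.232 FPKM and the 3 of groups 1 to 4 summed to 0.599 FPKM. The HOXD medians were 0.104, 0.232 and 0.215 FPKM in the same order, so the typical member showed no 5′ weighting. So the 5′ weighting of the sums was not shared at the same height by all clusters. In HOXB it rests on HOXB13. The other HOXB member of groups 9 to 13, HOXB9, was at 0.979 FPKM. This level of 1 gene is below the HOXB sums of 4.54 for groups 5 to 8 and 1.61 for groups 1 to 4. Those sums cover 4 genes each, with medians of 0.973 and 0.308 FPKM, and HOXB9 is not below these medians.

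Some loci of the table cover several genes, and their reads may have been split among them. HOXA9 and HOXA10 share a locus with the read-through HOXA10-HOXA9 and MIR196B, and HOXA5, HOXA6 and HOXA7 share one with HOXA-AS3. HOXB5 and HOXB6 share one with HOXB-AS3, and HOXC4, HOXC5 and HOXC6 share one with MIR615. Levels of these members are uncertain to that extent. The sources used here do not say whether counting used the strand.

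After paxillin siRNA no HOX gene was called by edgeR without replicate numbers, while DESeq2 called HOXA11 lower. Once libraries of the same number were compared with each other, edgeR called HOXA11, HOXA13 and HOXB13 lower. The 35 members that passed the filter on low counts were tested. Without the replicate block, edgeR called 0 of 35 higher and 0 of 35 lower at an adjusted p under 0.05, where it called 0.882% of all 15876 tested genes higher and 0.302% lower. At an unadjusted p under 0.05 in either direction there were 4 members, or 11.4%, against 22.5% of all genes, and limma-voom also called 0. DESeq2 called 1 member, HOXA11, lower (adjusted p = 0.0343) and 0 higher, against 5.05% and 4.79% of all genes. With the replicate number as a block, edgeR called 3 of 35 members lower, or 8.57%, and 0 higher, where it called 10.7% of all genes lower and 11.7% higher. At an unadjusted p under 0.05 the block gave 8 members, or 22.9%, against 35.9% of all genes. The share of members called lower was thus near that of all genes.

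HOXA11 was measured at 23.4, 19.0 and 16.3 CPM with non-specific siRNA and at 13.5, 13.4 and 11.9 CPM with paxillin siRNA. All 3 paxillin siRNA libraries lay below all 3 non-specific ones. Within numbers 1, 2 and 3 the paxillin library held 57.5%, 70.8% and 73.1% of the level of its partner. The log2 fold change was -0.60 ± 0.17 (SE; edgeR, adjusted p = 0.105) without the block and -0.58 ± 0.14 (adjusted p = 0.0126) with it. An exact permutation test over the 6 libraries gave p = 0.1, the smallest value that 3 against 3 allow. In bulk RNA, fewer cells with a transcript and less transcript per cell cannot be told apart.

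HOXA13, the last gene of its cluster, was measured at 36.9, 23.2 and 42.9 CPM with non-specific siRNA and at 25.8, 17.5 and 29.3 CPM with paxillin siRNA. The groups overlapped, and the libraries of each group kept the same order by number, with replicate 2 lowest and replicate 3 highest. Each paxillin library was below its partner, at 69.8%, 75.6% and 68.2% of it. The log2 fold change was -0.51 ± 0.26 (SE; edgeR, adjusted p = 0.300) without the block and -0.49 ± 0.12 (adjusted p = 0.0128) with it.

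HOXB13 behaved likewise at a much higher level. It was measured at 690, 530 and 855 CPM with non-specific siRNA and at 460, 288 and 663 CPM with paxillin siRNA. The groups overlapped, and the order by number was again 2, 1, 3 in both. The paxillin libraries held 66.6%, 54.4% and 77.6% of the level of their partners. The log2 fold change was -0.56 ± 0.31 (SE; edgeR, adjusted p = 0.326) without the block and -0.61 ± 0.15 (adjusted p = 0.0151) with it. This gene dominates the cluster sums. The summed FPKM of all 39 members was 123 ± 16.3 with non-specific and 88.6 ± 21.3 with paxillin siRNA (SD, n = 3). The sum without HOXB13 was 41.6 ± 3.50 and 35.8 ± 4.70. FPKM is not TMM-scaled, so these sums also carry a difference in scaling between groups.

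In edgeR these 3 calls were made only with the replicate block, and they depended on the libraries. DESeq2 called HOXA11 without the block too, as given above, and did not call HOXA13 (adjusted p = 0.273) or HOXB13 (adjusted p = 0.255). With the block but without replicate number 1 none of the members was called by edgeR, with 4 at an unadjusted p under 0.05. Without number 2, HOXA11 and HOXA13 were called lower, and HOXB13 had an adjusted p of 0.166. Without number 3, HOXA11, HOXA13, HOXB13 and HOXB6 were called lower. With the block, DESeq2 called the same 3 genes, and limma-voom called them and HOXB6. Over all genes, edgeR with the block called 173, 653 and 2318 lower without number 1, 2 and 3. With the block on all 6 libraries DESeq2 called 1609 genes lower and limma-voom 1732.

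**Figure D2:**
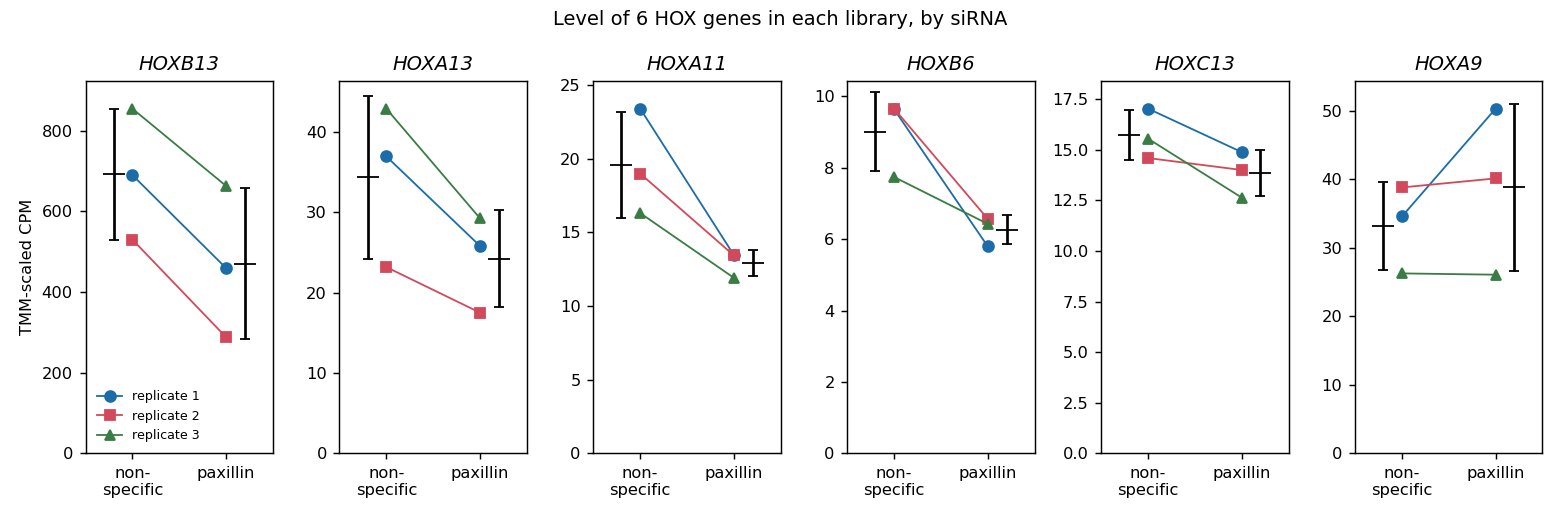
TMM-scaled CPM of 6 HOX genes in each library, with lines joining libraries of the same replicate number and black bars showing the mean and SD of each group (n = 3). HOXB13 runs from 288 to 855 CPM, and its lines, like those of HOXA13, HOXA11, HOXB6 and HOXC13, all slope down, while those of HOXA9 do not share a direction.

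The other members above 1 FPKM were not called by edgeR on all 6 libraries, with or without the block. HOXB6 came nearest, with 9.64, 9.66 and 7.74 CPM against 5.80, 6.57 and 6.43 CPM and no overlap, a log2 fold change of -0.52 ± 0.17 (SE; edgeR, adjusted p = 0.137, and 0.0510 with the block). HOXC13 was measured at 17.0, 14.6 and 15.5 CPM against 14.9, 14.0 and 12.6 CPM, with a 95% interval of the log2 fold change from -0.51 to 0.15. HOXA9 was measured at 34.6, 38.8 and 26.3 CPM against 50.3, 40.1 and 26.1 CPM, where replicate 1 of paxillin siRNA stands above the rest. Its log2 fold change was 0.23 (95% interval -0.35 to 0.80), and it changed sign without that library. For HOXA10, with 22.4, 20.9 and 21.3 CPM against 28.6, 17.9 and 17.9 CPM, the interval ran from -0.47 to 0.46. Thus HOXA9 and HOXA10, which lie next to HOXA11, had intervals that include no change, and the difference between these genes was not tested.

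HOXA6 was at 3.13, 3.40 and 2.32 CPM against 2.28, 2.68 and 2.09 CPM, lower in each pair and overlapping between groups. HOXB5 was at 5.76, 6.19 and 4.77 CPM against 4.90, 6.08 and 3.86 CPM, also lower in each pair. HOXC6 was at 6.86, 9.26 and 3.73 CPM against 5.09, 6.42 and 5.60 CPM, where the highest and the lowest library both had non-specific siRNA. The 3 genes had log2 fold changes of -0.33 ± 0.24, -0.17 ± 0.23 and -0.22 ± 0.32 (SE). HOXC9 was at 4.48, 5.72 and 2.87 CPM against 6.73, 5.25 and 4.01 CPM, with a log2 fold change of 0.29 ± 0.30. HOXA4 was at 5.97, 5.15 and 3.87 CPM against 4.90, 5.28 and 3.11 CPM, with a log2 fold change of -0.17 ± 0.27. All of these intervals include 0, which does not show that the levels were the same.

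Across all 35 tested members the log2 fold changes ran from -0.66 to 0.85 with a median of -0.17, where the median over all genes was 0.0018. They were below 0 in 24 of 35 members and in 49.8% of all genes. With the block the medians were -0.15 and 0.0047. The SE of a member's log2 fold change ranged from 0.14 to 0.55, and no error was computed for the median. The members are neighbours on 4 chromosomes and share libraries and loci, so they are not independent of each other.

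**Figure D3:**
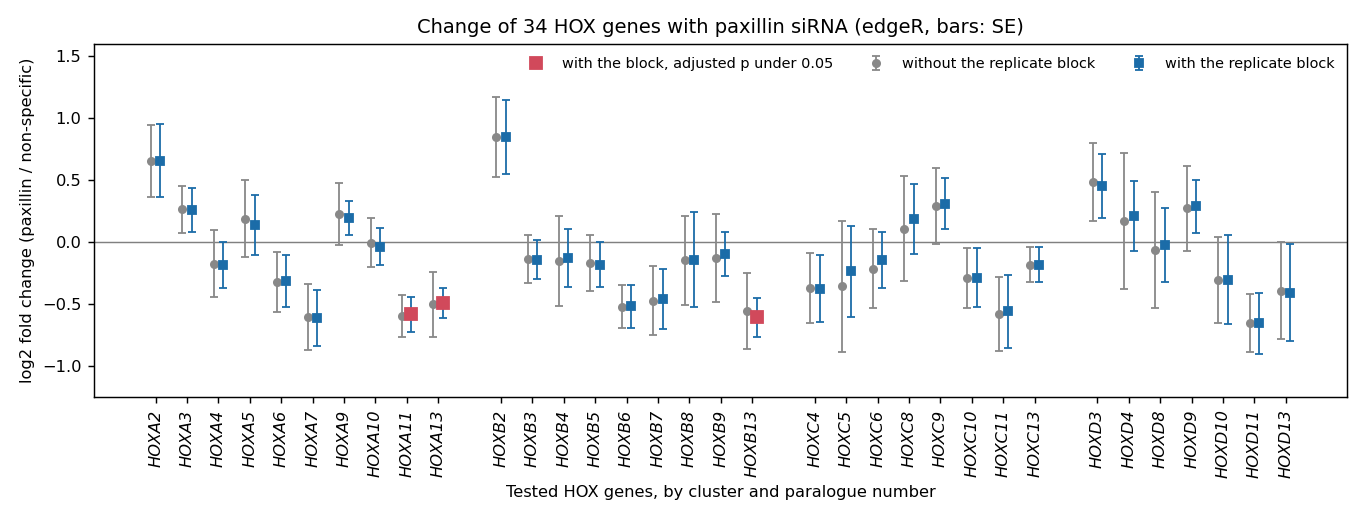
The log2 fold change of 34 of the 35 tested HOX genes with paxillin siRNA against non-specific siRNA (edgeR, bars are the SE), without (grey) and with (blue) the replicate number as a block, and red where the adjusted p with the block was under 0.05. Of the points without the block, 24 lie below 0, and the 3 red ones are HOXA11, HOXA13 and HOXB13.

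By position, the medians of the log2 fold change were 0.22 for the 10 tested members of groups 1 to 4, -0.22 for the 11 of groups 5 to 8 and -0.30 for the 14 of groups 9 to 13. By cluster, the medians were -0.0054 for HOXA, -0.15 for HOXB, -0.25 for HOXC and -0.064 for HOXD. In groups 9 to 13, 11 of 14 values were below 0, and in groups 1 to 4, 4 of 10. These are descriptions, and no test of the difference between positions was made.

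Libraries of the same replicate number were also compared member by member. In 15 of 35 members, or 42.9%, the paxillin library was below its partner in 3 of 3 pairs, where this held for 28.7% of all tested genes. These were 4 of 11 in HOXA, 6 of 9 in HOXB, 3 of 8 in HOXC and 2 of 7 in HOXD. The opposite, higher in 3 of 3 pairs, was seen in 3 members, or 8.57%, against 29.2% of all genes, and these were HOXA2, HOXA3 and HOXB2. All 3 belong to groups 1 to 4.

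Groups that did not overlap at all were fewer. In 4 members, or 11.4%, all paxillin libraries lay below all non-specific ones, where 14.7% of all genes did so. Besides HOXA11 and HOXB6 these were HOXC11 and HOXD11. In 2 members, HOXA2 and HOXB2, they lay above, which is 5.71% against 13.6% of all genes. The members named here below 1 FPKM were chosen after their values were seen. HOXB2, a hindbrain gene, was at 0.782, 0.751 and 0.484 CPM against 1.53, 0.981 and 1.12 CPM, with the highest log2 fold change of the tested members, 0.85 ± 0.32 (SE; edgeR, adjusted p = 0.178, and 0.0592 with the block). HOXD11, a limb gene, was at 1.81, 1.61 and 1.90 CPM against 1.05, 1.13 and 1.19 CPM and had the lowest, -0.66 ± 0.24 (edgeR, adjusted p = 0.161, and 0.0761 with the block). Among the members under 1 FPKM the smallest adjusted p-values were these 0.161 without the block and 0.0592 with it.

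The order of the libraries by replicate number was often the same in both groups. In 20 of 35 members, or 57.1%, replicate 3 was the lowest library of both groups, where this held for 23.6% of all tested genes. These were 5 members of HOXA, 6 of HOXB, 4 of HOXC and 5 of HOXD. In 3 members, or 8.57%, replicate 3 was the highest of both groups, against 23.1% of all genes, and these were HOXA13, HOXB13 and HOXD11. So HOXA13 and HOXB13, like HOXD11, ran opposite to most members across replicate numbers. All 3 belong to groups 9 to 13, where replicate 3 was the lowest of both groups in 6 of 14 tested members. It was so in 8 of 11 members of groups 5 to 8 and in 6 of 10 of groups 1 to 4. Not every gene at the 5′ end had replicate 3 highest, and no test of position was made. HOXC13 and HOXD13, the last genes of the other clusters, had replicate 3 lowest with paxillin siRNA and in the middle with non-specific siRNA. HOXB9 gives an example of the common pattern, with 8.14, 9.08 and 3.97 CPM with non-specific siRNA and 8.04, 7.17 and 4.19 CPM with paxillin siRNA. It was chosen after its values were seen. By inferred reads replicate 3 was also the shallowest library of both groups, and the part of depth in this pattern was not tested.

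**Figure D4:**
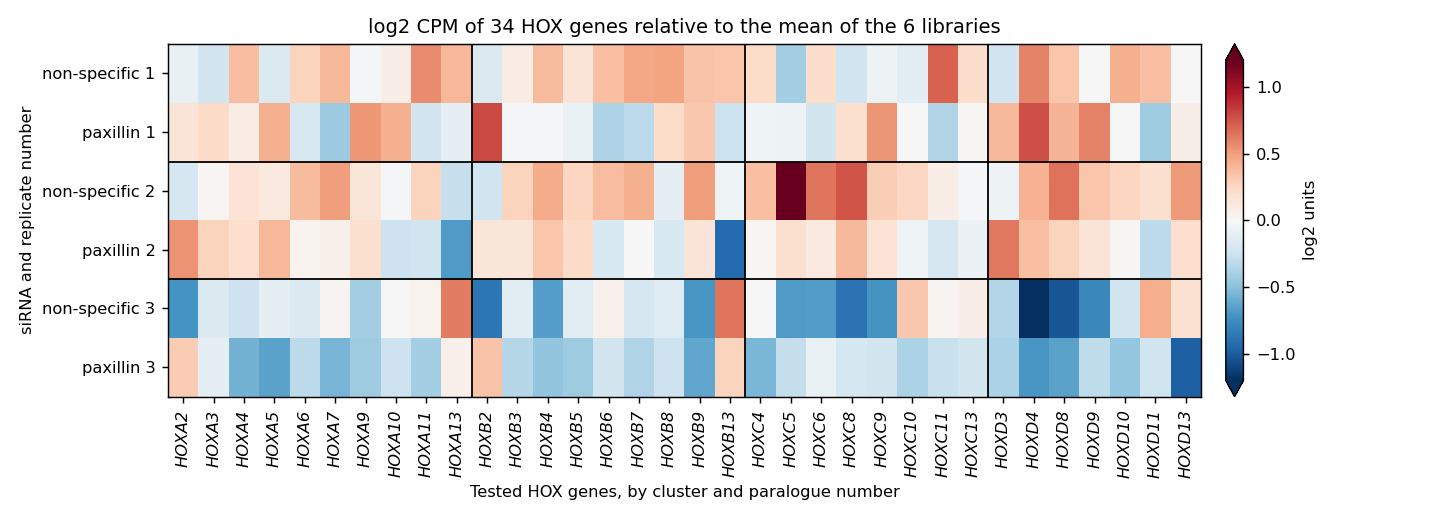
The log2 CPM of 34 of the 35 tested HOX genes in each library, relative to the mean of the 6 libraries (red higher, blue lower), with libraries of the same replicate number next to each other and lines between numbers and between clusters. In 22 of the 35 members both libraries of replicate 3 lie below the mean (blue), and only HOXA13 and HOXB13 have both above it (red).

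The promoters of HOXA13 and HOXA11, called lower with the block, are shown with that of HOXA9, whose interval includes no change, because these genes lie in the same cluster. The sequences are the 150 bases before the start in RefSeq (GRCh38.p14), on the minus strand, at chr7:27200092-27200241 for HOXA13, chr7:27185233-27185382 for HOXA11 and chr7:27165538-27165687 for HOXA9. Capitals mark TATAAA and CCAAT on either strand, the letters of a TATA box and of an NF-Y site.
HOXA13: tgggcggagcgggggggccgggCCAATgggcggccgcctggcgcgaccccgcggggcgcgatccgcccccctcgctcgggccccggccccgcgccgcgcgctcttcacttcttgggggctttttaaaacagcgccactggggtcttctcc
HOXA11: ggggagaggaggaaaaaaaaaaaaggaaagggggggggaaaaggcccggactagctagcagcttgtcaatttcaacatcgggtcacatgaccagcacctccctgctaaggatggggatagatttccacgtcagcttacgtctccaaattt
HOXA9: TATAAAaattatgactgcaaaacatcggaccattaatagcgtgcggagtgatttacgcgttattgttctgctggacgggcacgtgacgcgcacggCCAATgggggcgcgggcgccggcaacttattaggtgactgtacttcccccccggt

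RefSeq promoters, each 300 bases long, were matched for 20 of the 39 members, with 27 entries among 35116. CCAAT stood on either strand in 66.7% of the member entries and in 34.6% of all entries, TATAAA in 18.5% and 11.5%, and TGATNNAT, the letters of a joint PBX and HOX site, in 11.1% and 7.40%. The median ratio of observed to expected CpG was 0.849 for the members and 0.579 for all entries, at a similar GC content of 58% and 58.7%. Some entries are alternative starts of the same gene.

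Genes that lie inside the clusters without being HOX genes were mostly low, with PRAC the highest. In all libraries 9 of the 17 stayed below 0.1 FPKM. The 17 summed to 75.0 to 97.5 FPKM with non-specific siRNA, which is more than PRAC alone. Of 17 such genes 8 were tested. Without the block edgeR called 0 of them, with 1 at an unadjusted p under 0.05, where 22.5% of all genes were. DESeq2 called 0. With the block edgeR called 1 lower, or 12.5%, where it called 10.7% of all genes lower. PRAC, which encodes a small nuclear protein of prostate, rectum and distal colon and lies next to HOXB13 at chr17:46799082-46799882, was listed at 56.9, 58.5 and 72.2 FPKM with non-specific siRNA and at 72.7, 38.7 and 58.0 FPKM with paxillin siRNA. The groups overlapped, and its log2 fold change was -0.075 ± 0.22 (SE; edgeR, adjusted p = 0.867). HOXB-AS5, listed by RefSeq as PRAC2 and lying between PRAC and HOXB13 at chr17:46800542-46802119, was at 9.42, 11.3 and 11.9 CPM against 7.52, 7.28 and 8.45 CPM. It did not overlap between groups, with a log2 fold change of -0.49 ± 0.17 (edgeR, adjusted p = 0.145, and 0.0485 with the block). That call was lost with the block in DESeq2 (0.0836) and with the block without number 1, 2 or 3 (edgeR, 0.165, 0.221 and 0.0755). HOXB-AS5, PRAC and HOXB13 lie together at the far end of the HOXB cluster.

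Among the long non-coding RNAs, HOXA-AS5, listed by RefSeq as HOXA11-AS and lying beside HOXA11, was at 18.5, 12.3 and 17.2 CPM against 19.9, 11.2 and 11.6 CPM, with a log2 fold change of -0.17 ± 0.26. HOTAIRM1, near the 3′ end of HOXA, was at 4.66, 5.97 and 4.77 CPM against 7.55, 8.79 and 5.31 CPM, with a log2 fold change of 0.49 ± 0.23 (edgeR, adjusted p = 0.262). HOXD-AS2 was below 1 FPKM on average, at 0.852, 1.03 and 0.544 FPKM against 0.310, 0.546 and 0.362 FPKM. HOTAIR, the HOXC transcript known for its link to Polycomb, was too low for a test at 0.107 to 0.429 CPM. MIR615 had a mean of 1.64 FPKM that came from 1 library, in which its count was 0.0346 CPM, below the limit of 3 reads. HOTTIP, just beyond HOXA13 and outside the span, was looked at after its values were seen and had a log2 fold change of -0.030 ± 0.21.

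HOX proteins bind DNA together with PBX, MEIS and PKNOX proteins, and 8 of these 9 cofactor genes were tested. Without the block edgeR and DESeq2 each called 0 of them, with 2 at an unadjusted p under 0.05 in edgeR, or 25% where all genes had 22.5%. With the block edgeR called 2 lower, or 25%, and 0 higher, where it called 10.7% of all genes lower and 11.7% higher. MEIS2 was at 15.9, 14.1 and 21.3 CPM against 9.57, 11.1 and 14.5 CPM, with a log2 fold change of -0.54 ± 0.15 with the block (edgeR, adjusted p = 0.0209, and 0.201 without it). PKNOX1 was at 25.1, 21.5 and 28.2 CPM against 17.8, 15.1 and 21.8 CPM, with -0.46 ± 0.13 with the block (adjusted p = 0.0215, and 0.188 without it). PBX2 was the highest of the list at 6.10 ± 0.437 FPKM, with a log2 fold change of -0.0093 ± 0.12. PBX3 did not overlap between groups, at -0.30 ± 0.15 (adjusted p = 0.281, and 0.177 with the block). The median of the list was -0.17, beside 0.0018 for all genes.

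Polycomb proteins keep HOX genes silent, and trithorax proteins keep them active. Of the 27 Polycomb genes, all tested, edgeR called 0 without the block, with 6 at an unadjusted p under 0.05, or 22.2% where all genes had 22.5%. With the block it called 6 lower, or 22.2%, and 1 higher, or 3.70%. Of all genes it called 10.7% lower and 11.7% higher with the block. DESeq2 without the block called RNF2 and BMI1 lower and PCGF5 higher, where it called 5.05% of all genes lower and 4.79% higher. The values named next are those with the block. CBX2, a reader of the Polycomb mark, had the smallest p of the list at -0.71 ± 0.13 (adjusted p = 0.00306, and 0.316 without it), BMI1 was at -0.62 ± 0.15 (0.0122, and 0.0982 without it) and PCGF5 at 0.48 ± 0.12 (0.0158, and 0.0958 without it). EZH2, the methyltransferase, was also lower at -0.56 (adjusted p = 0.0420, and 0.177 without it), as were PHF19, RNF2 and CBX6. RBBP7 and PHC2, the highest with PHF19, at 22.1 and 37.0 FPKM, had adjusted p-values of 0.0521 and 0.985 with the block. The list had a median of -0.10 without the block.

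Of the 17 trithorax genes edgeR called 0 with the block and 0 without it, and DESeq2 called 0. With and without the block 3 and 1 had an unadjusted p under 0.05, where 35.9% and 22.5% of all genes did. Their median was 0.057. MEN1 and DPY30, of the complexes that methylate active HOX genes, had log2 fold changes of -0.11 ± 0.11 and 0.024 ± 0.15, WDR5 and PSIP1 had -0.37 ± 0.15 and -0.29 ± 0.14, and KDM6B, which removes the Polycomb mark, had 0.39 ± 0.21 (edgeR, adjusted p from 0.204 to 0.943). The FPKM sum of the list was 65.0 to 66.0 with non-specific siRNA and 59.3 to 63.5 with paxillin siRNA, without overlap. FPKM is not TMM-scaled, unlike the values behind the median. Of the 12 genes of retinoic acid and CDX inputs, which switch HOX genes on in the embryo, 6 were tested. Of these edgeR called 0 with or without the block, DESeq2 called 0, and 0 had an unadjusted p under 0.05, with a median of -0.21. RARA and RARG were at -0.27 ± 0.15 and -0.25 ± 0.13, and RXRA and RXRB at -0.16 ± 0.17 and -0.084 ± 0.14.

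Of 12 related homeobox genes outside the clusters 5 were tested, and GBX2 was called lower without the block. With the block edgeR called 2 of 5 lower, or 40%. Of all genes edgeR called 0.302% lower without the block and 10.7% with it. GBX2, a gene of the midbrain and hindbrain boundary, was at 32.4, 26.9 and 13.3 CPM with non-specific siRNA and at 4.60, 3.81 and 7.15 CPM with paxillin siRNA. The groups did not overlap, and the log2 fold change was -2.22 ± 0.37 (SE; edgeR, adjusted p = 0.0410, and 0.000773 with the block). Its relative GBX1 was at 3.98, 3.36 and 1.52 CPM against 0.598, 0.830 and 0.831 CPM, at -1.96 ± 0.40 (adjusted p = 0.0589, and 0.00222 with the block). EN1 and EN2, the engrailed genes, were at -0.34 ± 0.22 and -0.39 ± 0.19 and were not called with or without the block. DESeq2 called GBX1 and GBX2 lower, where it called 5.05% of all genes lower. Without non-specific siRNA replicate 1, or without replicate 2, edgeR called 0 of all genes in either direction, GBX2 and PXN included. The call of GBX2 was also lost without paxillin siRNA replicate 1 or 2 (adjusted p = 0.178 and 0.154), with limma-voom (0.0530) and with limma on log2 FPKM (0.0516 to 0.174), and it held in all 6 edgeR, DESeq2 and limma-voom fits with the block. No tested HOX gene had a log2 fold change as large as that of GBX2.

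Genes of cell division moved with the groups. Without the block edgeR called 0 of 8, though all 8 had an unadjusted p under 0.05, where 22.5% of all genes did. DESeq2 called 7 lower, where it called 5.05% of all genes lower. With the block edgeR called 8 of 8 lower, against 10.7% of all genes. The median change on the log2 scale was -1.14 without the block and -1.26 with it. Their summed FPKM was 64.1 to 97.7 with non-specific siRNA and 23.2 to 51.4 with paxillin siRNA. TOP2A, which untangles DNA before division, was at 96.0, 132 and 105 CPM against 20.6, 18.1 and 59.2 CPM, and CDK1, the mitotic kinase, at 67.0, 105 and 72.4 CPM against 19.8, 14.9 and 44.4 CPM. The highest paxillin library was replicate 3 in both. The part of the change in cell division in the levels of HOXA11, HOXA13, HOXB13 and the Polycomb genes was not tested.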

How the data were processed

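The deposited tables give estimated counts and FPKM per gene and library, per the file headers. The authors used FastQC 0.10.1, Cufflinks 2.0.2 and hg19, per the submitters' processing notes (aligner, annotation and strand not given in the sources used here). Divided by the worth of 1 read, 90.8% to 91.7% of the deposited estimated counts were whole within 0.05. Locus starts were raised by 1, because counting them from 0 matched 1899 loci to the length of their gene and counting from 1 matched 253.

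The quasi-likelihood test of edgeR 4.0.16 (R 4.3.3) was run on rounded estimated counts, with filterByExpr, TMM scaling and the siRNA group as its single term. It was two-sided, with Benjamini-Hochberg adjustment over 15876 genes and a threshold of 0.05. An SE is the log2 fold change divided by the root of F. The test was tried on simulated data. Levels between genes are compared as FPKM, levels between libraries as TMM-scaled CPM. The 2 can differ between groups. PHC2, picked as an example, had means of 306 and 305 CPM with non-specific and paxillin siRNA, but of 37.0 and 34.8 FPKM. FPKM sums are given as descriptions only. Across genes, libraries that share a number deviated from their group means together (correlations 0.34, 0.43 and 0.56), so numbers were taken to pair libraries, which the labels do not state. Between numbers 1 and 2 the correlations were 0.11 and 0.092, and between number 3 and the others -0.48 to -0.29. Numbers 1 and 2 thus stood less apart from each other than from number 3. DESeq2 1.42.0 and limma 3.58.1 served as alternatives.

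Members with a mean of 1 FPKM or more with non-specific siRNA, or called, are given with all values. From each list the called genes, the 3 highest and up to 3 with the smallest p with the block are named. The members and lists were chosen with earlier results of these data known. Some genes of the lists and 1 member are not reported singly here and stay in the counts and sums.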

Additional observations from a re-analysis of the deposited data

How the results depend on the processing

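HOXA11, HOXA13, HOXB13, HOXB6, HOXA6, HOXB5, HOXC13 and HOXC9 kept their sign in 20 of 20 other settings, with log2 fold changes from -0.71 to -0.45, -0.72 to -0.30, -0.89 to -0.30, -0.64 to -0.41, -0.47 to -0.21, -0.35 to -0.026, -0.26 to -0.12 and 0.069 to 0.54. They were called in 6, 5, 4, 2, 0, 0, 0 and 0 of these settings. The sign turned for HOXA10 without replicate 1 of non-specific siRNA (0.013), without replicate 2 or 3 of paxillin siRNA (0.11 each) and with the replicate block without number 2 (0.055) or 3 (0.073), with -0.27 to 0.11 over the fits that leave out 1 library. It turned for HOXC6 without non-specific siRNA replicate 2 (0.10) and with the block without number 1 (0.00078) or 2 (0.065; -0.49 to 0.10 leaving out 1 library). HOXA9 turned without paxillin siRNA replicate 1 (-0.0048 to 0.44 leaving out 1 library) and HOXA4 without its replicate 3 (-0.32 to 0.023). PRAC turned without replicate 3 of non-specific siRNA (0.032), without replicate 2 of paxillin siRNA (0.12; -0.30 to 0.12 leaving out 1 library) and with the block without number 2 (0.080). The causes were not tested.

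HOX genes called lower numbered 1 with DESeq2, 3 with the replicate block, 3 with the block in DESeq2, 4 with the block in limma-voom and 0 to 4 with the block and 1 number left out. The block gave 2 cofactor genes lower, 6 Polycomb genes lower and 1 higher, 2 related homeobox genes lower, 8 cell division genes lower and 1 gene within the clusters lower. Of all genes the block gave 10.7% lower and 11.7% higher. PXN lost its call with limma on log2(FPKM + 1) without a filter (-3.46) and without non-specific siRNA replicate 1 (-3.52) or 2 (-3.50), with -3.81 to -3.41 leaving out 1 library.

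Over all genes, higher and lower calls were 759 and 800 with DESeq2, 215 and 88 without the count filter, 23 and 10 with limma on log2(FPKM + 1), 46 and 17 with a pseudocount of 0.1, and 0 and 0 without the FPKM filter. With the replicate block they were 1858 and 1703, in DESeq2 1412 and 1609 and in limma-voom 1881 and 1732. The block without number 1, 2 or 3 gave 282, 683 and 2567 higher and 173, 653 and 2318 lower, and leaving out 1 library gave 0 to 1169 and 0 to 1271, highest without paxillin siRNA replicate 3. The fits with the block in DESeq2 or limma-voom and without a number were chosen after seeing the data. At a level of 0.5 FPKM 21 members counted, and at 5 FPKM 3. CPM divided by gene length was not run, as the table gives no length. Depth limits members under 1 CPM, where a few reads decide a value.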
